A study of Homo sapiens with 2 samples.

Results

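These results describe the ChIP peaks of dCas9-BFP-DNMT3A that lay at gene promoters but carried no seed of the uPA gRNA T2 at their summit. A peak was counted when its summit, the base with the most overlapping fragments, lay within 2 kb of the start of a protein-coding transcript, and when no site within 70 bp of the summit matched the last 5 bases of T2 followed by an NGG protospacer adjacent motif (PAM). Of the 7757 deposited peaks, 7748 lay on chromosomes 1 to 22 and X. Of these, 390 (5.03%) had their summit in a promoter, and 284 of the 390 (72.8%) had no T2 seed. The other 106 promoter peaks, which had the T2 seed, and the 6128 peaks without a T2 seed outside promoters were used for comparison.

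HEK293T, an established human embryonic kidney cell line, was transiently transfected with 500 ng of a plasmid for dCas9-BFP-DNMT3A, expressed from the PGK promoter, together with 500 ng of the 5 uPA gRNAs T1 to T5. The ChIP sample was precipitated with an antibody against the HA tag of the fusion protein, and the other sample was an input of the same cell line with no antibody. No ChIP without gRNAs and no ChIP of single gRNAs were analysed here, so a peak could not be assigned to a gRNA by the experiment, and binding through the gRNA could not be told apart from other recovery of promoter DNA. There was 1 ChIP sample, so no value has a replicate check. Repeats and the mappability of reads were not annotated here, so printed sites, that of ZNF561 among them, may lie in repeated sequence. Peaks do not stand in for replicates, the tests compare peaks within 1 list, and all 95% intervals cover counting error only.

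dCas9 is a catalytically inactive Cas9 that is carried to DNA by its gRNA. It first recognises the PAM and then pairs the gRNA with the DNA from the PAM-proximal end, so that the bases next to the PAM, the seed, weigh most in binding. DNMT3A is a de novo DNA methyltransferase that adds methyl groups to the cytosine of CpG, and promoters often lie in CpG islands, stretches rich in CpG that are mostly unmethylated.

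The gRNAs are shown because the peaks were sorted by T2 and then searched for the others. They are written 5′ to 3′, with the last 5 bases, the seed, in capitals.
T1: gtgagcgttgcggaaGCACG
T2: gagccgggcgggagaGGGAG
T3: gagtcaaggcgccccGTCCC
T4: gcccggggatctcagGACCG
T5: gggacaggtggacccTGGCC
The patterns searched on both strands were therefore GCACGNGG, GGGAGNGG, GTCCCNGG, GACCGNGG and TGGCCNGG. T2 holds its own pattern a second time within its last bases, so a long T2 match can count as 2 sites. T1, T2 and T3 match the plus strand of chromosome 10 and T4 and T5 the minus strand.

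The target itself belonged to these peaks. PLAU (ENSG00000122861), the gene of the urokinase plasminogen activator uPA, carried 1 peak at chr10:75669472-75671059 (hg19) with its summit 165 bp upstream of the nearest start and inside a CpG island. It held 62 tags, with a fold enrichment over the input of 4.21, a MACS score (the negative log10 of P multiplied by 10) of 89.57 and a false discovery rate (FDR) of 21%. The site of T1 began 64 bp from the summit, that of T2 122 bp, that of T5 220 bp and that of T4 287 bp, all inside the peak, whereas that of T3 lay 396 bp away and outside it. None of the 5 target seeds lay wholly within 70 bp of the summit. A further T5 seed, which matched 7 bases from the PAM, lay 39 bp from the summit on the minus strand. GAPDH, TGFBR3, SH2D3C and FAM221A, which the study also examined, had no peak within 2 kb of a start. The nearest summits lay 249585 bp from a start of GAPDH, 7374 bp from TGFBR3, 144857 bp from SH2D3C and 175341 bp from FAM221A.

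The promoter peaks without a T2 seed were weak. Their fold enrichment had a median of 3.80 (interquartile range 3.38 to 4.21, range 2.36 to 7.51, n = 284), their tag count a median of 33 (18 to 193) and their score a median of 35.9 (30.02 to 115.06). The FDR was 100% at both quartiles and 14.4% at the lowest. Promoter peaks with a T2 seed had a median fold enrichment of 5.11 (3.05 to 11.42, n = 106), while the peaks without a T2 seed outside promoters had a median of 3.61 (n = 6128).

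A fold enrichment of at least 5 was reached by 23 of the 284 peaks (8.10%, 95% Wilson interval 5.46 to 11.9), against 14.0% of all 7748 peaks. The share was 54.7% in promoter peaks with a T2 seed, 58 of 106 (two-sided Fisher's exact test, Benjamini-Hochberg adjusted over 5 shares, P = 5.18e-21). That T2-matched peaks are stronger was already known from the whole list, so this is the same pattern within promoters and no independent support for it. Outside promoters the share without a T2 seed was 4.21%, 258 of 6128 (two-sided Fisher's exact test, adjusted over 9 shares, P = 0.00949). The call was lost at fold enrichment 6 (1.76% against 0.995%), at 1 kb (7.56% against 4.32%), without chromosome 1 (7.42% against 4.43%) and when peaks with any T2 seed were removed (6.44% against 3.25%; adjusted P from 0.0758 to 0.278, Fisher's exact tests). A MACS P at or below 1e-05 was reached by 35 peaks (12.3%), against 15.8% of all peaks. It was 9.22% in peaks without a T2 seed outside promoters (Fisher's exact test, adjusted P = 0.121) and 42.5% in promoter peaks with one (Fisher's exact test, adjusted P = 1.60e-09).

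The strongest of these peaks lay at genes of unlike function. By fold enrichment the highest was at FBXL19, which encodes an F-box protein that binds unmethylated CpG DNA, with a value of 7.51, 48 tags and a score of 104.81. It was followed by BTBD1, a BTB-domain protein, with 6.45, and CX3CL1, the chemokine fractalkine, with 6.31. PRCC, known from translocations in papillary renal cell carcinoma, and the zinc finger gene ZNF561 both stood at 6.01. The peak at APLF, a DNA repair factor, which was also within 2 kb of a start of the F-box gene FBXO48, had 5.97. PTK2, the focal adhesion kinase, and PPDPFL followed at 5.71. WNT6, a Wnt ligand, and DGKQ, a diacylglycerol kinase, closed the 10 highest with 5.41, the same value as the peak shared by HYPK and SERINC4. FBXL19 ranked 191 by fold enrichment among all 7748 peaks, so the highest of these peaks stood well below the top of the list.

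Ranked by score, the order changed. APLF came first with 115.06 on 64 tags, then CX3CL1 with 114.44 on 57 tags, FBXL19, and MACF1, a crosslinker of actin and microtubules, with 102.18 on 51 tags. PLAU was next, ahead of BTBD1 with 86.08. SLC35F3, a solute carrier, had 83.26, KCNE5, a subunit that modulates potassium channels, 69.14, SNX7, a sorting nexin, 67.57, and SOAT1, which esterifies cholesterol, 62.61. ZNF561 and PTK2, among the highest by fold enrichment, had scores of 33.96 on 26 tags and 30.87 on 29 tags.

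The peaks with the most tags were others again, and they were not enriched strongly. TCEAL8 had 193 tags at a fold enrichment of 2.58, DSG1, which encodes the desmosomal cadherin desmoglein 1, 159 tags at 2.88, and B4GALT6, a galactosyltransferase, 143 tags at 2.99. The peak at NPY4R, a receptor of the neuropeptide Y family, held 154 tags at 3.28. It also lay within 2 kb of a start of NPY4R2, and since these genes are near-identical copies its position is uncertain. TIAM2, an activator of the small GTPase Rac, combined 120 tags with the lowest fold enrichment of all, 2.36. SDCCAG8 with 2.43, GFOD1 and TCEAL8 with 2.58 and the forkhead gene FOXJ2 with 2.69 were the next lowest. TCEAL8 and TIAM2 therefore stood among the highest by tags and among the lowest by fold enrichment.

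The peaks were spread thinly over promoters, away from the starts and from CpG islands. They lay at 286 of 19747 protein-coding genes, or 1.45%. One gene was within reach of 271 peaks and 2 genes were within reach of 13. FANK1 had 3 peaks, and CCDC150, CEP170, CMKLR2, FOXP1, MESP2, PDE8A, SEMA6A, TMEM219 and ZMYND11 had 2 each. All sequence within 2 kb of a start came to 100.3 Mb, in which these peaks had a density of 2.83 per Mb (95% Poisson interval 2.51 to 3.18). Peaks without a T2 seed had 2.24 per Mb in the remaining sequence (2.18 to 2.30). For comparison, peaks with a T2 seed had 1.06 per Mb in promoters (0.865 to 1.28) and 0.450 per Mb elsewhere (0.425 to 0.476).

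The median distance of a summit from the nearest start was 1138.5 bp, and 143 summits lay upstream and 141 downstream. Only 4 summits were within 100 bp of a start and 14 (4.93%) within 250 bp. Within 500 bp lay 40 (14.1%, 95% interval 10.5 to 18.6), although 28.8% of promoter sequence is that near to a start. The density was 0.906 per Mb in the 250 bp upstream of the start and 0.867 per Mb in the 250 bp downstream, and it rose to 4.45 per Mb between 1250 and 1500 bp upstream. Promoter peaks with a T2 seed lay within 500 bp more often, 27 of 106 (25.5%; Fisher's exact test, adjusted over 5 shares, P = 0.0128). This test no longer passed among peaks with MACS P at or below 1e-05 (20% against 22.2%) or when peaks with a T2 seed anywhere were left out (15.3% against 19.1%). The density with a T2 seed was 1.04 per Mb in the 250 bp upstream and 0.867 per Mb in the 250 bp downstream. These bins held only 8 and 7 such peaks, too few to show whether they had a trough of their own. Downstream of the nearest start lay 49.6% of the peaks without and 40.6% of those with a T2 seed (Fisher's exact test, adjusted P = 0.112).

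By annotation, 164 summits (57.7%) lay in introns of protein-coding transcripts, 97 (34.2%) outside such transcripts, 11 in 3′ UTRs, 9 in 5′ UTRs and 3 in coding exons. CpG islands, computed from windows of 500 bp whose GC content reached 55% and whose observed to expected CpG ratio reached 0.65, covered 22.8% of promoter sequence but held 18 of the 284 summits (6.34%, 95% interval 4.05 to 9.80). Within promoters the density was 0.786 per Mb in islands (0.466 to 1.24) and 3.44 per Mb outside them (3.04 to 3.87). Promoter peaks with a T2 seed lay in islands more often, 18 of 106 (17.0%; Fisher's exact test, adjusted over 5 shares, P = 0.00433), a call that was lost among peaks with P at or below 1e-05 (11.4% against 13.3%). Peaks without a T2 seed outside promoters hardly ever did, 10 of 6128 (0.163%; Fisher's exact test, adjusted over 9 shares, P = 2.01e-17), but sequence outside promoters also holds far fewer islands. The T2 seed has 4 G or C in its 5 bases, so the split by it also sorts promoter sequence by GC content. The test against promoter peaks with a T2 seed cannot tell these apart. Of windows of 70 bp on each side that tile promoter sequence, 23.1% were centred in an island, and 21.2% of those without a T2 seed. Among the 18 island peaks were ZNF561, DGKQ, KLHL22, the LIM homeobox gene LHX4, SLC35F3, PLAU and KDM5B, a histone demethylase, with fold enrichments from 3.62 to 6.01 for these 7.

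The window from 70 bp before to 70 bp after the summit had a median GC content of 41.1% and a median of 13 NGG sites. The values were 51.1% and 21 in promoter peaks with a T2 seed, 39.0% and 10.5 in peaks without one outside promoters, and 48.9% and 17 over 701215 adjoining windows of the same length that tile all promoter sequence. The summits without a T2 seed were thus poorer in GC and in PAMs than promoter sequence at large. GC content, PAMs and islands move together, and their part in the results on seeds below was not tested. Other peaks were near in some cases, since 33 of the 284 summits (11.6%) had another summit within 5 kb, against 6.35% of the peaks without a T2 seed outside promoters.

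The seeds of the other gRNAs were then counted within 70 bp of each summit. The T4 seed was present in 12 of the 284 peaks (4.23%, 95% interval 2.43 to 7.24), against 42 of 6128 peaks without a T2 seed outside promoters (0.685%, 0.507 to 0.925; Fisher's exact test, adjusted over 9 shares, P = 1.31e-05). In promoter windows without a T2 seed the T4 pattern was found in 1.03%. Outside islands the shares were 8 of 266 peaks (3.01%, 1.53 to 5.82), 0.670% of the other peaks and 0.425% of promoter windows. In islands they were 4 of 18 peaks (22.2%, 9.00 to 45.2) and 3.28% of promoter windows, with 1 of 10 other peaks. That the T4 seed is frequent near summits was known from the whole list, so these counts describe where it stood in promoters. With seeds of 8 bases the T4 shares were 0.704% and 0.0653% and the call was lost (Fisher's exact test, adjusted P = 0.0586).

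The T5 seed was found in 9 peaks (3.17%), against 1.32% of the other peaks (Fisher's exact test, adjusted P = 0.0317). Its share in promoter windows without a T2 seed was 5.46%, inside the 95% interval of the peaks (1.68 to 5.91), and the call against the other peaks was lost under 5 of 9 alternatives, in each of which the share stayed above that of the other peaks. The T3 seed was found in 3 peaks (1.06%), against 0.995% of the other peaks (Fisher's exact test, adjusted P = 0.761) and 3.01% of promoter windows. The T1 seed was found in 0 of 284 peaks, which allows a share of up to 1.06% (3 counts), against 0.408% of the other peaks (Fisher's exact test, adjusted P = 0.704) and 1.07% of promoter windows. The T2 seed followed by NAG, a weaker PAM of Cas9, was found in 13 peaks (4.58%), against 2.53% of the other peaks (Fisher's exact test, adjusted P = 0.0797) and 5.25% of promoter windows. T4 was hence the only one of the 5 patterns whose share in these peaks was above that of promoter windows, a comparison that was not tested.

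The T4 sites of 11 of the 12 peaks are shown because they lay close to the summit and at several of the strongest peaks. The 20 bases opposite T4 and the PAM are written 5′ to 3′ on the strand of the match (GRCh37), with the bases that match T4 without a break from the PAM and the GG of the PAM in capitals.
BTBD1, chr15:83736841-83736863, plus strand: tcatcatgattgggGGACCGaGG
CX3CL1, chr16:57410941-57410963, plus strand: ccaggaccattcagGGACCGtGG
ZNF561, chr19:9731466-9731488, plus strand: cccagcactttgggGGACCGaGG
APLF, chr2:68695931-68695953, plus strand: ggagttttctcttgGGACCGgGG
HYPK, chr15:44093426-44093448, minus strand: ttatttttgtctggGGACCGgGG
VAV3, chr1:108231157-108231179, minus strand: tagcccagcctgagGGACCGtGG
MID2, chrX:107070499-107070521, minus strand: tgaaaacgggtaggGGACCGtGG
CACNB2, chr10:18687916-18687938, plus strand: tgagaccgggaatgcGACCGcGG
SLC35F3, chr1:234041777-234041799, plus strand: cactcctatgtggcaGACCGtGG
KIAA0513, chr16:85062470-85062492, plus strand: gctgacagctgTCAGGACCGaGG
PPOX, chr1:161136011-161136033, minus strand: cactgccctcCTCAGGACCGaGG

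Of the 12 sites, 11 (91.7%, 95% interval 64.6 to 98.5) lay within 20 bp of the summit, with a median distance of 7.5 bp. Of all positions that a site can take in the window, 35.8% are this close. The T4 sites of the other peaks lay as close in 22 of 42 cases (52.4%), the T5 sites of the promoter peaks in 4 of 9 and the T3 sites in 0 of 3. Beyond the 5 bases, 9 of the 12 sites matched at least 6, and the longest runs were 10 bases at PPOX, an enzyme of heme synthesis, and 9 bases at KIAA0513. Of the 42 other peaks with a T4 seed, 27 matched at least 6 bases, and their longest run was 9. These runs were read from sites with all 20 bases and the PAM inside the window. The difference between the groups was not tested. Over all 20 bases the 11 sites shown had between 7 and 14 mismatches.

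The base before the matched 6 was G in 7 of the 9 sites, the substitution A14G counted from 1 at the 5′ end of T4. The same base was G at 43.8% of the 32 such sites in the other peaks and at 48.5% of 3603 such sites in all promoter sequence. It was A, as in T4, only at PPOX and KIAA0513. These counts were made after the sites had been seen and were not tested.

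Fold enrichment differed with the T4 seed. A value of at least 5 was reached by 6 of the 12 peaks with a T4 seed, among them BTBD1, CX3CL1, ZNF561, APLF and HYPK. Among the 272 peaks without it 17 reached that value (6.25%; Fisher's exact test, adjusted over 5 patterns, P = 0.000488, a comparison added after the data had been opened). VAV3, a guanine nucleotide exchange factor, followed with 4.99. MID2, a ubiquitin ligase on microtubules, had 3.99, CACNB2, a calcium channel subunit, 3.77, SLC35F3 3.62, and KIAA0513 and PPOX 3.61 each. The sites with the longest T4 runs thus stood at the lowest fold enrichments of the 12, below the median of all 284. For T5 the count was 3 of 9 (Fisher's exact test, adjusted P = 0.0709), for T3 1 of 3 (adjusted P = 0.281), for T2 with NAG 2 of 13 (adjusted P = 0.284) and for a T2 seed elsewhere in the peak 10 of 82 (adjusted P = 0.246, all Fisher's exact tests). The groups overlap. Of the 12 peaks with a T4 seed, 6 also held a T2 seed elsewhere in the peak, 3 of them among the 6 with a fold enrichment of at least 5, and 2, HYPK and KIAA0513, had a T2 seed with NAG. ZNF561 and CX3CL1 also had a T5 seed and HYPK a T3 seed within 70 bp of the summit.

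Longer runs of T5 were rare. The summit of FBXL19, the peak with the highest fold enrichment, had a site 33 bp away that matched the last 11 bases of T5, and the 3 other T5 sites named here matched 7 bases at CX3CL1, 7 at PLAU and 5 at ZNF561. The FBXL19 peak also held a T2 seed with NGG 99 bp from the summit, and its longest T2 match was 7 bases. At CX3CL1 the nearest T2 seed with NGG lay 395 bp from the summit, and the longest T2 match in the peak was 11 bases. The FBXL19 site is shown in the same notation, with the bases that match T5 and the GG of the PAM in capitals.
FBXL19, chr16:30938548-30938570, minus strand: tccttctagGGACCCTGGCCaGG
The T3 sites at HYPK, SRP72, a subunit of the signal recognition particle, and MESP2, a factor of somite formation, all matched 5 bases, with fold enrichments of 5.41, 4.35 and 3.91.

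A T2 seed farther from the summit was counted over the whole peak. In 82 of the 284 peaks (28.9%, 95% interval 23.9 to 34.4) the peak held a T2 seed with NGG outside the 70 bp on each side of the summit, against 1077 of the 6128 peaks outside promoters (17.6%; Fisher's exact test, adjusted over 9 shares, P = 1.71e-05). The median distance of the nearest such site was 230 bp (66 to 907 bp), and 31 of the 82 had one within 150 bp. The match reached 8 bases in 8 of the 82 peaks (9.76%) and 11 bases in 5 (6.10%), PLAU among them. Of the 1077 peaks outside promoters 16.6% reached 8 bases and 8.26% reached 11. Long T2 matches were thus not more frequent in the promoter peaks, which was not tested. The peaks had a median length of 922.5 bp, so this share cannot be set against the windows of 70 bp on each side, and the difference in GC content between promoters and other sequence was not taken out of this comparison.

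Values near the limits of the definition were set side by side without a test. The 16 peaks 1900 to 2000 bp from a start had a median fold enrichment of 3.51 and the 17 peaks without a T2 seed just beyond 2000 bp, up to 2100 bp away, 3.61. The 15 peaks with the nearest T2 site up to 100 bp from the summit, just outside the window, had a median of 4.07 (2.69 to 7.51). The 5 promoter peaks that had the nearest T2 site at 50 bp or more but still inside the window had a median of 4.51 (3.91 to 6.61). With only 5 peaks inside the window, these values cannot show whether the 2 sides of the T2 limit were alike.

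Sites that resemble all 20 bases of T2 were sought next, with an NGG PAM anywhere in the peak and without a demand on the seed. Apart from PLAU, whose T2 site has 0 mismatches, the closest sites are shown, with matching bases and the GG of the PAM in capitals.
DGKQ, chr4:969130-969152, minus strand: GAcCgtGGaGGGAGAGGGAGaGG
SH3D19, chr4:152245670-152245692, plus strand: aAGCCGccCGGaAGAGGGAagGG
PCGF5, chr10:92978254-92978276, plus strand: GAGCCccagGGGAGAaGGAGaGG
TMEM86A, chr11:18720744-18720766, plus strand: tcGCgGccCGGGAGAGGGAGgGG
The site at DGKQ had 4 mismatches, G3C, C5G, G6T and C9A counted from the 5′ end of T2, and matched the last 11 bases, but lay 92 bp from the summit. At SH3D19, an adaptor protein, the site covered the summit and had 5 mismatches, of which G20A fell on the base next to the PAM and so kept it out of the seed search. The site at PCGF5, a Polycomb group RING finger protein, lay 13 bp from the summit with 5 mismatches, and G16A broke its seed at the first of the 5 bases. Their fold enrichments were 5.41, 5.08 and 5.01, while TMEM86A, with 5 mismatches at 136 bp, had 4.21. The seed search thus left out 2 sites with 5 mismatches to T2 that lay at or beside the summit. It also left out a site with 6 mismatches that covered the summit of DMBT1. The fold enrichment there was 3.75, below the median of 3.80 over the 284 peaks.

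Such sites were few. A match to T2 with at most 8 mismatches lay within 70 bp of the summit in 9 of the 284 peaks (3.17%), against 1.17% of the peaks without a T2 seed outside promoters and 7.66% of promoter windows without one. For T4 the counts were 5 peaks (1.76%), 0.783% and 4.13%. At this limit the summits held fewer T2-like and T4-like sites than promoter sequence at large, where the GC content was higher, and this was not tested. At a limit of 7 mismatches the order for T2 was the same, with 5 peaks (1.76%) against 2.53% of promoter windows. At a limit of 6 it was the other way, with 3 peaks (1.06%) against 0.628%, too few peaks to show a difference. For T4 the count at 6 mismatches was 0 peaks against 0.175% of promoter windows.

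Most of the peaks showed none of these sequences. In 185 of the 284 (65.1%) no seed of the 5 gRNAs with NGG and no T2 seed with NAG lay within 70 bp of the summit, and the peak held no T2 seed. The same share was not counted in the other peaks or in promoter windows, so 65.1% has no value to be set against. The median fold enrichment of the 185 was 3.67 (2.36 to 6.01). Of them, 9 reached 5 (4.86%, against 14.0% of all 7748 peaks), and 13 reached a MACS P of 1e-05 (7.03%, against 15.8%). The highest were PRCC with 6.01 on 31 tags, PPDPFL and PTK2 with 5.71 and MACF1 with 5.24. CHRNB4, a subunit of nicotinic acetylcholine receptors, followed with 5.11 on 39 tags, the same fold enrichment as GJB1, TRIM11 and LHX4. MACF1 stood out by its score of 102.18, which ranked 134 among all 7748 peaks. The windows of 70 bp on each side of the summits of MACF1 and PRCC are shown as examples of peaks without a seed followed by its PAM. Both windows hold the T2 bases GGGAG, on the plus strand at MACF1 and the minus strand at PRCC. Neither NGG nor NAG follows them there. MACF1 was chosen as high by score and PRCC as high by fold enrichment only, since PRCC had a score of 45.07 and an FDR of 100%. The windows are on the plus strand of GRCh37. Capitals mark the NGG site, on either strand, with the fewest mismatches to the 20 bases of T2.
MACF1, chr1:39679592-39679732: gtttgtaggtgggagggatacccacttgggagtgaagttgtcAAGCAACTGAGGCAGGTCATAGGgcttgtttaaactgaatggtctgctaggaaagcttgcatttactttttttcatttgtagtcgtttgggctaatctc
PRCC, chr1:156738861-156739001: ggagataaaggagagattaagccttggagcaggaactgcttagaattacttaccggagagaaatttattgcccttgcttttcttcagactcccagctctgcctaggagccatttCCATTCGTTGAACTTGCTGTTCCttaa
Both of the sites in capitals had 13 mismatches to T2 over the 20 bases, close to the median of 12 over the 284 peaks.

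The peaks were unevenly spread over chromosomes. Chromosome 1 carried 55 of the 284 (19.4%) on 10.2% of promoter sequence, or 5.38 per Mb (95% Poisson interval 4.06 to 7.01). Chromosome 15 had 7.84 per Mb (5.03 to 11.7), chromosome 10, the chromosome of PLAU, 5.46 per Mb (3.38 to 8.35) and chromosome 21 5.68 per Mb (2.28 to 11.7). The lowest densities were 0.503 per Mb on chromosome 9 (0.0610 to 1.82), 0.719 on chromosome 17 (0.196 to 1.84) and 0.737 on chromosome 19 (0.239 to 1.72). Of the peaks without a T2 seed outside promoters, chromosome 1 held 13.4% and chromosome 15 3.90%, against 8.45% of the promoter peaks without a T2 seed for chromosome 15. Promoter peaks with a T2 seed had 18 (17.0%) on chromosome 1 and 3 (2.83%) on chromosome 15. The high share of chromosome 1 was thus not particular to promoter peaks without a T2 seed. BTBD1, HYPK, CHRNB4, both peaks of MESP2 and both of PDE8A lay on chromosome 15. The number of copies of each chromosome in these cells was not measured here, and its part in these densities was not tested.

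Gene families were counted against the 1.45% of all protein-coding genes that had such a peak. Among housekeeping groups, 1 of 85 cytosolic ribosomal protein genes (RPS23, fold enrichment 3.61), 2 of 50 proteasome genes (PSMA1 with 4.81 and PSMB2 with 3.53), 2 of 69 genes with the symbols of translation factors, 0 of 36 splicing proteins and 0 of 34 RNA polymerase subunits had one. Those found by the symbols of translation factors were EIF2AK3, a kinase of an initiation factor, at the peak nearest to RPIA, and EIF4ENIF1, which transports one, and neither is itself such a factor. Of 74 heat shock genes only DNAJC28 did. Of 88 histone genes 2 had one, among them H3C8 with 3.73. Among regulators, 3 of 59 chromatin enzymes had a peak, the demethylases KDM7A with 4.81 and KDM5B with 3.91 and the Polycomb methyltransferase EZH2 with 3.76. Of 123 developmental factors 3 did, LHX4 with 5.11, FOXP1, whose 2 peaks had 4.88 and 3.91, and FOXJ2.

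Zinc finger genes carried such peaks at 3 of 512 (0.586%, 95% interval 0.199 to 1.71), ZNF561, ZNF219 and ZNF215. No HOX gene of 39 had one, and of 17 immediate early genes only ATF3 did, with 4.59. Among genes with tissue-restricted expression, 5 of 391 olfactory receptors (1.28%), among them OR4D10 and OR56A5 with 3.61 each, 0 of 55 keratins and 1 of 65 protocadherins, PCDHA10, had a peak. Of 373 solute carriers 8 did (2.14%, 1.09 to 4.17). In the plasminogen activator system the target PLAU was the only one of 10 genes. With a count of 0, 3 counts allow a share of up to 5.45% for keratins, 7.69% for HOX genes, 8.33% for splicing proteins and 8.82% for RNA polymerase subunits. The groups held between 0 and 8 of these peaks, and none was tested.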

How the data were processed

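ChIP-seq of HEK293T cells gave 1 ChIP and 1 input sample. The input was used by the authors in their peak call and in no other step. The authors aligned the reads with SOAP2 to hg19, brought the uniquely mapped reads of both samples to the same number and ran MACS 1.4.2 at P 0.001, as the methods and the header of the deposited list give it. The depth was 62723055 ChIP and 62723050 input tags, of which 44934315 and 46375481 remained at 1 tag per position. The deposited tag counts are raw, the deposited fold enrichment is a ratio to the local background, the deposited score is the negative log10 of P multiplied by 10, and the deposited FDR is in percent. The methods describe triplicates and the removal of repeats, whereas the header names 1 ChIP file. All 7757 deposited peaks were the start here. The paper reports a much smaller set of enriched peaks, and which of the peaks described here belong to it was not worked out.

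Summits were the peak start plus the offset less 1. Starts were those of 55732 basic protein-coding transcripts of GENCODE 44 on GRCh37. A site had all 8 bases of its pattern within 70 bp of the summit. Promoter sequence was the union of all bases within 2 kb of a start, tiled in windows of the same size, 70 bp on each side. Shares were compared by two-sided Fisher's exact tests (SciPy 1.17.1) with Benjamini-Hochberg adjustment over 9 shares against other peaks without a T2 seed and over 5 against promoter peaks with one, and given Wilson intervals. Densities have exact Poisson intervals. The site search was tested on simulated data. Genes were named by rank of fold enrichment, score and tags, by match to a gRNA and by membership of gene lists. Of the 12 T4 peaks 11 were named instead of 4 and the other is not reported here, and KLHL22, TMEM86A, CHRNB4, GJB1, TRIM11, RPIA and the genes with several peaks were named after their values were seen. The members and lists were chosen with earlier results of these data known. Alternatives changed the distance, annotation, window, summit, threshold, chromosomes, seed length, island definition and fold limit.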

Additional observations from a re-analysis of the deposited data

How the results depend on the processing

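Of 112 recomputed shares 93 kept their direction and their side of the threshold, 13 kept their direction and lost significance and 6 turned their direction. Of 14 recomputed counts 6 moved by over 1.5 times. No paired analysis was possible because there was 1 ChIP sample and no replicates. The number of peaks and of their genes moved to 119 and 119 within 1 kb of a start, to 655 and 735 with starts of all gene types, and to 35 and 38 with MACS P at or below 1e-05. In what follows the share of these peaks is set against that of the compared peaks, with the adjusted P of Fisher's exact test. The T5 call was lost at 1 kb (4.20% against 1.35%, 0.0573), with all gene types (1.98% against 1.34%, 0.278), without peaks that hold any T2 seed (1.98% against 1.31%, 0.621), at P at or below 1e-05 (8.57% against 1.59%, 0.0501) and with 8-base seeds (0.352% against 0.0653%, 0.304). The call on fold enrichment of at least 5 against other peaks without a T2 seed was lost at 1 kb (7.56% against 4.32%, 0.160), without any T2 seed in the peak (6.44% against 3.25%, 0.0758), without chromosome 1 (7.42% against 4.43%, 0.0886) and at a limit of 6 (1.76% against 0.995%, 0.278). The T4 call was lost with 8-base seeds (0.704% against 0.0653%, 0.0586) and passed under the 8 other alternatives. The call on summits within 500 bp of a start was lost without any T2 seed in the peak (15.3% against 19.1%, 0.436) and at P at or below 1e-05 (20% against 22.2%, 1.0), and that on islands against promoter peaks with a T2 seed at P at or below 1e-05 (11.4% against 13.3%, 1.0). Shares that had not passed turned direction for T3, at 1 kb (0.840% against 1.00%), without any T2 seed in the peak (0.495% against 0.911%), with sites that reach into the window (1.08% against 1.08%, lower by under 0.01 percentage points), within 35 bp (0% against 0.473%) and with 8-base seeds (0% against 0.0326%), and for summits downstream of the start at P at or below 1e-05 (40% against 44.4%). None of these 6 passed. Alternatives that keep fewer peaks have wider intervals, and the cause of the other changes was not tested.

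The list has no input counts, no replicate and no ChIP without gRNAs. At this depth most of these peaks had an FDR of 100%, so single weak peaks are uncertain. Repeats were not annotated. GC content, PAMs and islands were not held equal between the groups.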
